A study of Mus musculus with 9 samples.

Results

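The protein-coding mRNAs of puerarin-treated hearts under pressure overload were compared with those of untreated hearts under the same load. The members were all genes of the deposited table of these hearts that RefSeq lists as protein-coding, with the 13 mitochondrially encoded mRNAs counted by name. They were 12378 of its 14073 genes, measured in 6 of the 9 hearts of the series. All mice were C57BL/6 (male, by the methods of the study), with an age of 10 weeks on the labels, and carried no transgene. The TAC+PUE mice had the aortic arch narrowed by transverse aortic constriction (TAC) and were injected intraperitoneally with puerarin at 100 mg/kg per day, begun 3 days ahead of the operation. The TAC mice had the same constriction with saline injections. The sham mice had the operation with no constriction and saline, and their values are given as a level only. Each group had 3 mice, 1 library each, and total RNA of heart tissue was taken 21 days after surgery. No group received puerarin without the constriction, so an action of the compound on an unloaded heart cannot be told apart from one on the load.

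A narrowed aorta makes the left ventricle eject against a higher pressure, and the muscle answers by growing. In mice this growth is known to go with re-expression of fetal muscle genes, with less use of fatty acids as fuel, and with deposition of matrix by fibroblasts. Puerarin is an isoflavone glycoside of kudzu root that is studied as a protective agent of the heart. The question of the comparison is which mRNAs differ when it is given during the load.

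Expression is in FPKM (fragment counts scaled to transcript length and library size). Changes are differences on log2(FPKM + 1), TAC+PUE minus TAC, with a standard error (SE) and an adjusted p from limma with Benjamini-Hochberg adjustment at 0.05. The libraries were not alike in composition. The mitochondrially encoded mRNAs took 14.2 to 26.0% of the summed FPKM of the TAC+PUE hearts, against 2.81 to 7.04% in the TAC hearts. Transcripts with ribosomal RNA sequence took 1.11 to 2.52% in the TAC+PUE hearts, against 4.81 to 7.495% in the TAC hearts. The median gene stood at 4.07 to 4.18 FPKM in the TAC+PUE hearts and at 2.74 to 3.62 FPKM in the TAC hearts. Counts and changes are therefore given as deposited and, for lists and for most genes, after median-ratio scaling, which divides each library by the median ratio of its genes to their geometric means. The scaling factors were 1.13 to 1.15 for the TAC+PUE libraries and 0.767 to 1.01 for the TAC libraries. Scaling moved the median change of the protein-coding genes by -0.28, to -0.04 from 0.24, so a change after scaling is read against the typical gene. Myl7, the atrial myosin light chain, was at 27.4, 708 and 245 FPKM in the TAC+PUE hearts and at 79.8, 1.60 and 198 FPKM in the TAC hearts. This atrial mRNA varied widely within both groups, and TAC+PUE replicate 2 was the highest. In whole tissue, fewer cells of a type and less RNA per cell cannot be told apart.

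Of the 11064 protein-coding genes that reached 1 FPKM or more in 3 or more libraries, 3592 (32.5%) were higher in TAC+PUE than in TAC hearts as deposited. Another 585 (5.29%) were lower. After median-ratio scaling, 2026 (18.3%) were higher and 2523 (22.8%) were lower. The balance of the directions changed with the scaling, while no gene was called in opposite directions. The 2026 genes higher after scaling were all among those higher as deposited. The 585 genes lower as deposited were all among those lower after scaling. The scaling factors of all TAC+PUE libraries were above those of all TAC libraries, so scaling lowered the typical change. The nesting and the lack of opposite calls largely follow from this shift. For the lower genes, the call after scaling is therefore no separate check. Removing the ribosomal RNA-like transcripts, alone or with the mitochondrial mRNAs, and rescaling left 1997 higher and 583 lower genes called in all 4 scalings. The 13 mitochondrially encoded mRNAs were not tested where they had been removed, so they could not count among the 1997. As deposited, 468 genes were higher by at least 1 on the log2 scale and 43 lower by at least 1. These counts changed when single hearts were left out. Calls of named genes that were lost when any 1 heart was left out are given with that heart, unless said otherwise. A test with 1 heart fewer also has less power, so a lost call need not stem from the values of that heart. Without TAC replicate 1 there were 2389 higher genes. Leaving out TAC+PUE replicate 1, TAC+PUE replicate 3 or TAC replicate 2 left 234, 278 or 353 lower genes. The values of the hearts did not overlap between the groups for 4793 (43.3%) of the genes in the higher and 1122 (10.1%) in the lower direction.

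**Figure D1:**
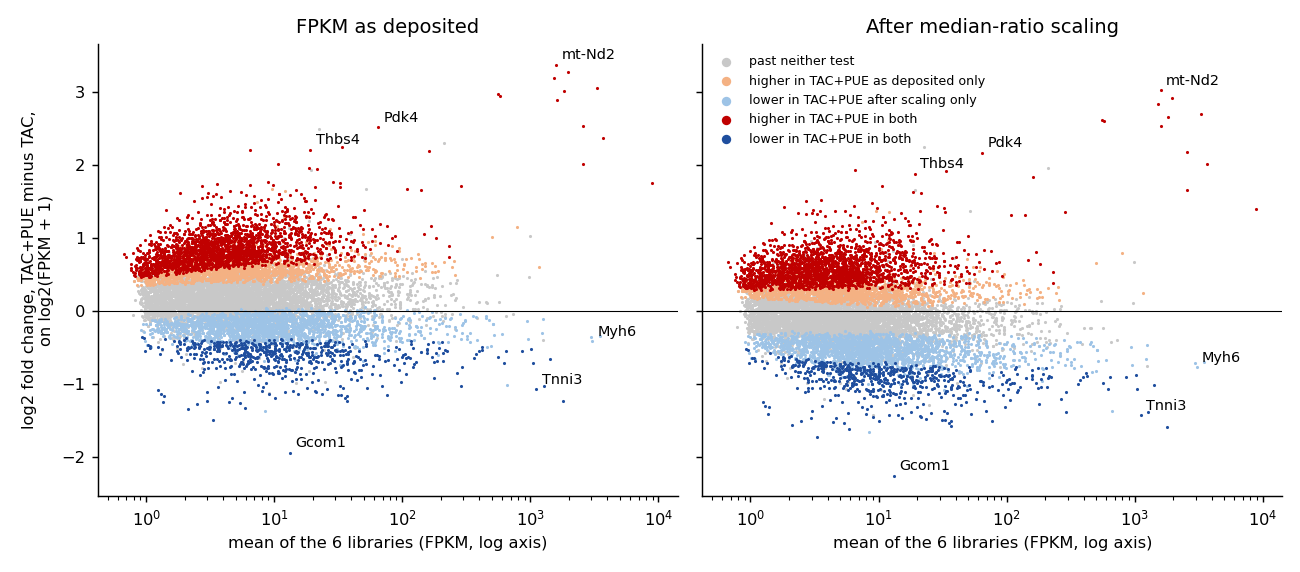
Log2 fold change, TAC+PUE minus TAC on log2(FPKM + 1), of each protein-coding gene tested against its mean FPKM over the 6 libraries (log axis), as deposited on the left and after median-ratio scaling on the right, with 1 point a gene. The median lies lower on the right by about 0.28, and abundant genes moved more than low ones. The median went from 0.32 to 0.12 in the lowest expression decile and from 0.03 to -0.32 in the highest. The 2026 genes higher and the 585 genes lower in both are drawn in red and dark blue.

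Apart from the mRNAs of the mitochondrial genome, the most increased mRNA by the naming rule was Pdk4. It encodes the kinase that inactivates pyruvate dehydrogenase and so spares glucose when fatty acids are burnt. Pdk4 stood at 131, 115 and 87.8 FPKM in the TAC+PUE hearts, against 14.7, 20.4 and 20.6 FPKM in the TAC hearts. All treated hearts were above all untreated hearts, as the naming rule required. Pdk4 rose by 2.51 on the log2 scale (SE 0.19, and 2.17 after scaling), with an adjusted p of 4.15e-04. The sham hearts averaged 201 FPKM, so the treated hearts lay between the untreated and the sham hearts in level.

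Thbs4, a thrombospondin of the matrix that is induced in stressed muscle, stood at 34.5, 34.6 and 27.03 FPKM in the TAC+PUE hearts, against 6.17, 7.43 and 4.95 FPKM in the TAC hearts. Thbs4 rose by 2.21 on the log2 scale (SE 0.17, and 1.88 after scaling). It averaged only 1.26 FPKM in sham hearts, so its treated hearts were the farthest from sham. Xirp2, an actin-binding protein of the intercalated disc, stood at 392, 206 and 201 FPKM in the TAC+PUE hearts, against 40.4, 78.2 and 52.4 FPKM in the TAC hearts. Xirp2 rose by 2.19 on the log2 scale (SE 0.29, and 1.83 after scaling), and TAC+PUE replicate 1 was the highest of its hearts.

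The most decreased mRNA was Gcom1, a combined locus of the neighbouring Myzap and Polr2m genes. Its reads can belong to either neighbour, so it is uncertain as a single gene. Gcom1 was at 2.604, 6.15 and 6.43 FPKM in the TAC+PUE hearts, against 21.7, 19.2 and 22.9 FPKM in the TAC hearts. Gcom1 fell by 1.95 on the log2 scale (SE 0.25, and -2.26 after scaling). Tuba4a, an alpha tubulin, stood at 22.7, 19.9 and 21.2 FPKM in the TAC+PUE hearts, against 48.6, 56.0 and 45.4 FPKM in the TAC hearts. Tuba4a fell by 1.19 on the log2 scale (SE 0.15, and -1.54 after scaling), with little spread within groups (adjusted p = 0.00323).

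Oaz1, the antizyme that restrains polyamine synthesis, was at 16.4, 30.5 and 21.5 FPKM (TAC+PUE) against 62.1, 45.5 and 46.5 FPKM (TAC). Romo1, a small protein of the mitochondrial inner membrane linked to reactive oxygen, was at 36.99, 64.6 and 41.2 FPKM (TAC+PUE) against 124, 98.7 and 92.7 FPKM (TAC). In both genes the treated hearts were all below the untreated ones, as the naming rule required. Oaz1 fell by 1.17 on the log2 scale (-1.51 after scaling) and Romo1 fell by 1.16 on the log2 scale (-1.51 after scaling). Cited4, a transcriptional cofactor that rises in exercised mouse hearts, was at 17.5, 24.6 and 15.6 FPKM (TAC+PUE) against 40.2, 51.7 and 39.3 FPKM (TAC). Cited4 fell by 1.16 on the log2 scale (-1.5 after scaling). Nrtn, which encodes the growth factor neurturin, was at 12.7, 39.6 and 17.3 FPKM (TAC+PUE) against 58.7, 43.9 and 49.1 FPKM (TAC). The orphan nuclear receptor Nr2f6 was at 11.7, 19.4 and 12.5 FPKM (TAC+PUE) against 34.98, 32.8 and 29.8 FPKM (TAC). Nrtn fell by 1.24 on the log2 scale (-1.59 after scaling) and Nr2f6 fell by 1.14 on the log2 scale (-1.48 after scaling). The remaining genes of the 12 largest decreases, with log2 changes of -1.33 to -1.14, were Spata5l1, Zc3h11a, Ccnb1ip1, Col5a3 and Cadm4. Sham means were 26.2 FPKM for Tuba4a, 14.1 for Oaz1, 35.6 for Romo1, 7.62 for Cited4 and 8.003 for Nr2f6. All of these were nearer to the treated than to the untreated hearts, as deposited. The genes were chosen by their treated and untreated values, and the sham libraries were not scaled with the others. This nearness is therefore no test of a return to sham levels. Sham means of the other large decreases are not all printed. Nrtn and Col5a3 missed the threshold without TAC replicate 1 (adjusted p = 0.0595 to 0.0839).

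The sequences just around the transcription starts of a pair of increased and a pair of decreased heart genes are shown because the genes moved in opposite directions. The starts and sequences are those of RefSeq on GRCm38.p6, 250 bases before to 50 bases after the start, 5′ to 3′ on the strand of the gene. Capitals mark matches, on either strand, to the TATA box TATAAA, the CCAAT box CCAAT, the GC box GGGCGG or the consensus of the muscle factor MEF2.
Pdk4 (chr6:5496229-5496528, minus strand): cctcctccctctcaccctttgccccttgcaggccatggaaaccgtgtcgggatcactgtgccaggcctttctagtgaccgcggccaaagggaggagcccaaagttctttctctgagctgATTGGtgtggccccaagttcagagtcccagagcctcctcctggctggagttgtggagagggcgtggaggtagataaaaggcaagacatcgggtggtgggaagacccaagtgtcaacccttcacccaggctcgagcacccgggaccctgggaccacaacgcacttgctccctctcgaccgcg
Xirp2 (chr2:67445752-67446051, plus strand): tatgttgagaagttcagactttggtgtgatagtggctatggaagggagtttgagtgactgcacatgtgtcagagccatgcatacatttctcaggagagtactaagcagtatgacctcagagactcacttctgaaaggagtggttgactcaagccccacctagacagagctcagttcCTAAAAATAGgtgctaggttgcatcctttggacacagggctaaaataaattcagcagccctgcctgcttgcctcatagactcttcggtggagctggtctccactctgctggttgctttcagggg
Tuba4a (chr1:75219245-75219544, minus strand): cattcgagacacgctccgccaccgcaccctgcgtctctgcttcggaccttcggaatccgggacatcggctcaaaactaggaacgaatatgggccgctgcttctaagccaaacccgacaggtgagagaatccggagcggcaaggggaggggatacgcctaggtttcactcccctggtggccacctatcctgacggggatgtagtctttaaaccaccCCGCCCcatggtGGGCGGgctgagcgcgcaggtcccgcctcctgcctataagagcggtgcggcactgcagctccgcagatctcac
Tnni3 (chr7:4522479-4522778, minus strand): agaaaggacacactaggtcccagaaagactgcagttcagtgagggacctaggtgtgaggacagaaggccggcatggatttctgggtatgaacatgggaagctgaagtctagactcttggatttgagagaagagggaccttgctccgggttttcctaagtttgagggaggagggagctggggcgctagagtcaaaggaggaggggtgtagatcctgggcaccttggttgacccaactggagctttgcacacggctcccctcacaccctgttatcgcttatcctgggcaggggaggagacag
Pdk4 held a CCAAT box on the opposite strand from -131 to -127, counted from the start. Xirp2 held a MEF2 match from -74 to -65, and Tuba4a held a GC box on each strand, from -35 to -30 and from -23 to -18. The window of Tnni3 held none of the 4. Promoters were known for 1622 genes higher in both scalings, for 468 genes lower in both and for 8880 genes tested, out of 27025 mouse promoters. The CCAAT box was in 37.9, 35.5, 38.6 and 37.9% of these sets. The GC box was in 63.9, 63.7, 66.0 and 35.9%, and the TATA box in 7.21, 7.05, 7.28 and 14.2%. The MEF2 consensus was in 2.34, 1.496, 1.81 and 3.26%.

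The mitochondrial genome encodes 13 mRNAs for core parts of the respiratory complexes and ATP synthase. All 13 were higher in TAC+PUE hearts as deposited and 12 after scaling. Their median log2 changes were 2.95 and 2.60. mt-Nd2, a subunit of complex I, had the largest change of all genes tested, at 4217, 1317 and 3131 FPKM in the TAC+PUE hearts, against 110.5, 265 and 524 FPKM in the TAC hearts. mt-Nd2 rose by 3.38 on the log2 scale (SE 0.52, and 3.02 after scaling). mt-Cytb of complex III stood at 7778, 3420 and 6426 FPKM in the TAC+PUE hearts, against 334, 710.4 and 1245 FPKM in the TAC hearts. mt-Atp6 of ATP synthase stood at 1245, 549.7 and 1146 FPKM in the TAC+PUE hearts, against 55.9, 129.8 and 219 FPKM in the TAC hearts. In each of the 3, TAC+PUE replicate 2 was the lowest treated heart and TAC replicate 1 the lowest untreated one. The exception after scaling was mt-Nd6, the only one read from the other strand of the circle. Its log2 change was 1.01 as deposited and 0.66 after scaling (adjusted p = 0.118). mt-Nd6 missed the threshold without TAC replicates 1 or 3 (adjusted p = 0.0501 to 0.102).

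Fewer of the nuclear genes of the same machinery were called higher than of all genes. Of 75 nuclear genes of oxidative phosphorylation, 12 were higher and 17 lower as deposited, against 32.5 and 5.29% of all genes. After scaling 4 were higher and 40 lower, against 18.3 and 22.8%. The 12 higher genes numbered 6 with TAC replicate 1 left out and 7 with TAC+PUE replicate 1. The 17 lower genes numbered 6 with TAC+PUE replicate 1 left out, 7 with TAC+PUE replicate 3 and 9 with TAC replicate 2. The median log2 changes of -0.04 and -0.40 compare with 0.24 and -0.04 over all genes. Ndufb4 of complex I was at 106, 92.6 and 114 FPKM (TAC+PUE) against 30.1, 51.2 and 62.2 FPKM (TAC). Uqcrb of complex III was at 264, 195 and 234 FPKM (TAC+PUE) against 70.4, 111 and 136 FPKM (TAC). Ndufb4 rose by 1.17 on the log2 scale (0.82 after scaling) and Uqcrb rose by 1.16 on the log2 scale (0.8 after scaling), and Cox7b of complex IV rose by 1.0 on the log2 scale (0.65 after scaling). Ndufa2, again of complex I, was at 139, 265 and 177 FPKM (TAC+PUE) against 368, 426 and 359.5 FPKM (TAC). Ndufa2 fell by 1.03 on the log2 scale (-1.39 after scaling), so subunits of complex I went in opposite directions.

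Mitochondrial ribosomal proteins translate the 13 mRNAs. Their list had 11 of 78 genes tested higher and 9 lower as deposited (14.1 and 11.5%, against 32.5 and 5.29% of all genes), and 4 higher and 33 lower after scaling (5.13 and 42.3%, against 18.3 and 22.8%). The 11 higher genes numbered 6 with TAC+PUE replicate 1 left out and 7 with TAC replicate 1. Mrpl42 was at 31.1, 20.1 and 28.2 FPKM (TAC+PUE) against 5.14, 10.02 and 11.8 FPKM (TAC). Mrps24 was at 21.6, 33.7 and 26.2 FPKM (TAC+PUE) against 53.8, 53.2 and 49.2 FPKM (TAC). Mrpl42 rose by 1.5 on the log2 scale (1.18 after scaling) and Mrps24 fell by 0.93 on the log2 scale (-1.28 after scaling). Short genes make up both of these lists. The median span in the genome was 6872 bases for nuclear oxidative phosphorylation and 7690 bases for the mitochondrial ribosome, against 23701.5 bases over all protein-coding genes tested.

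**Figure D2:**
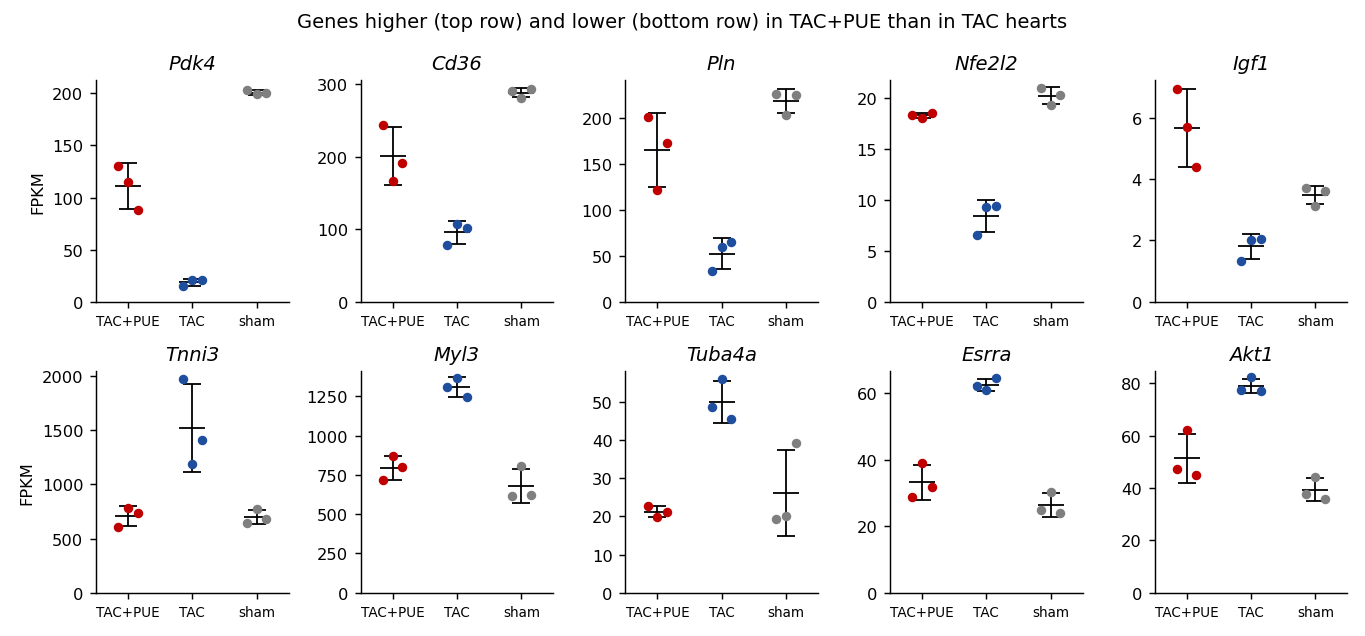
FPKM of 10 genes in each heart of the TAC+PUE, TAC and sham groups (1 point a heart, each panel from 0), with marks at the mean and bars of 1 SD. Pdk4, Cd36, Pln, Nfe2l2 and Igf1 (top) were higher and Tnni3, Myl3, Tuba4a, Esrra and Akt1 (bottom) lower in every TAC+PUE heart than in any TAC heart. Of all genes tested, 43.3% were separated in this way in the higher and 10.1% in the lower direction.

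Genes of fatty acid uptake and oxidation had 6 of 30 genes tested higher and 4 lower as deposited (20 and 13.3%, against 32.5 and 5.29% of all genes), and 4 higher and 11 lower after scaling (13.3 and 36.7%, against 18.3 and 22.8%). The 4 lower genes numbered 2 with TAC+PUE replicates 1 or 3 or TAC replicates 2 or 3 left out. The median log2 changes of 0.16 and -0.19 were below those of all genes, unlike the leading members. Beside Pdk4, the uncoupling protein Ucp3 stood at 18.3, 13.7 and 16.3 FPKM in the TAC+PUE hearts, against 3.86, 4.12 and 7.995 FPKM in the TAC hearts. Ucp3 rose by 1.49 on the log2 scale (SE 0.23, and 1.17 after scaling). The fatty acid transporter Cd36 stood at 244, 166 and 192 FPKM in the TAC+PUE hearts, against 77.6, 108 and 102 FPKM in the TAC hearts. Cd36 rose by 1.05 on the log2 scale (SE 0.19, and 0.7 after scaling). Ppargc1a, a coactivator that drives mitochondrial and oxidative genes, was at 18.8, 13.2 and 17.4 FPKM (TAC+PUE) against 5.38, 8.304 and 10.2 FPKM (TAC). Ppargc1a rose by 0.99 on the log2 scale (SE 0.22, and 0.66 after scaling). The sham hearts were above both groups, with means of 30.4 FPKM for Ucp3, 288 for Cd36 and 22.8 for Ppargc1a. Esrra, the oestrogen-related receptor alpha, works with Ppargc1a on the same targets but moved the other way. Esrra stood at 28.9, 38.97 and 31.8 FPKM in the TAC+PUE hearts, against 62.1, 60.8 and 64.5 FPKM in the TAC hearts. Esrra fell by 0.9 on the log2 scale (SE 0.16, and -1.25 after scaling), and its sham mean was 26.4 FPKM.

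Glycolysis and glucose uptake had 1 of 21 genes tested higher and 3 lower as deposited (4.76 and 14.3%, against 32.5 and 5.29% of all genes), and 0 higher and 14 lower after scaling (0 and 66.7%, against 18.3 and 22.8%). The 3 lower genes numbered 0 with TAC+PUE replicate 3 left out and 1 with TAC+PUE replicate 1 or TAC replicate 2. Pkm, the pyruvate kinase of muscle, was at 124, 131 and 122 FPKM in the TAC+PUE hearts, against 189.9, 193 and 184 FPKM in the TAC hearts. Pkm fell by 0.58 on the log2 scale (SE 0.15, and -0.94 after scaling), and its sham mean was 117 FPKM. Ldhb, the lactate dehydrogenase of heart muscle, was at 328, 359 and 359 FPKM (TAC+PUE) against 488, 507 and 479.7 FPKM (TAC). Ldhb fell by 0.5 on the log2 scale (-0.85 after scaling). Pfkp, a phosphofructokinase, was the single gene higher as deposited (0.44) and was not called after scaling (0.13). The tricarboxylic acid cycle had 3 of 23 genes tested higher and 1 lower as deposited (13.04 and 4.35%, against 32.5 and 5.29% of all genes), and 1 higher and 9 lower after scaling (4.35 and 39.1%, against 18.3 and 22.8%). Idh3g of isocitrate dehydrogenase was at 52.6, 44.5 and 54.5 FPKM (TAC+PUE) against 16.7, 25.8 and 29.9 FPKM (TAC). The malate dehydrogenase Mdh2 was at 149.5, 172 and 156 FPKM (TAC+PUE) against 232, 232 and 218 FPKM (TAC). Idh3g rose by 1.07 on the log2 scale (0.73 after scaling) and Mdh2 fell by 0.51 on the log2 scale (-0.87 after scaling). The median log2 changes of the glycolysis and cycle lists were -0.14 and 0.05, below the 0.24 of all genes. Pkm missed the threshold without TAC+PUE replicate 3 (adjusted p = 0.0543). Ldhb and Mdh2 missed the threshold without TAC+PUE replicates 1 or 3 or TAC replicate 2 (adjusted p = 0.077 to 0.106). Pfkp missed the threshold without TAC+PUE replicates 1, 2 or 3 or TAC replicates 1, 2 or 3 (adjusted p = 0.0594 to 0.173).

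The hypertrophy programme is a list of genes linked to growth of the loaded heart. It holds matrix genes and the transcription factor gene Srf beside genes of heart muscle. The list had 9 of 19 genes tested higher and 0 lower as deposited (47.4 and 0%, against 32.5 and 5.29% of all genes), and 5 higher and 2 lower after scaling (26.3 and 10.5%, against 18.3 and 22.8%). The median log2 changes of 0.74 and 0.51 were the highest of the process lists of nuclear genes. Its median was 1.12 without TAC+PUE replicate 3. With array weights it was 0.26, below the 0.66 of the circadian clock. The members that moved most were Thbs4 and Xirp2, described above, with Cilp and Ltbp2. Cilp, a matrix protein that binds TGF-beta, stood at 55.1, 50.3 and 45.9 FPKM in the TAC+PUE hearts, against 12.7, 19.9 and 12.9 FPKM in the TAC hearts. Cilp rose by 1.69 on the log2 scale (SE 0.19, and 1.35 after scaling). Ltbp2, a binding protein of latent TGF-beta, was at 8.297, 9.26 and 8.02 FPKM (TAC+PUE) against 2.38, 2.93 and 2.76 FPKM (TAC). Ltbp2 rose by 1.37 on the log2 scale (1.08 after scaling). Their sham means of 6.14 and 0.851 FPKM were below both groups.

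The classical fetal genes Myh7 and Nppa did not pass the test. Myh7, the slow myosin heavy chain that marks hypertrophy in mice, stood at 184, 201 and 192 FPKM in the TAC+PUE hearts, against 208, 172 and 167 FPKM in the TAC hearts. Its log2 change was 0.08 (SE 0.16, adjusted p = 0.701) as deposited and -0.27 after scaling. The groups overlapped, and both were above the sham mean of 100.2 FPKM. Nppa, the atrial natriuretic peptide, which is outside the naming rule, was at 577, 2756 and 927 FPKM (TAC+PUE) against 478, 587 and 621 FPKM (TAC). Its log2 change was 1.03 (adjusted p = 0.08603). The highest heart was TAC+PUE replicate 2, which was also the highest in Myl7. Without TAC+PUE replicate 1, Nppa passed as higher (adjusted p = 0.0162). Srf, the serum response factor that drives many muscle genes, was at 24.7, 32.7 and 24.9 FPKM (TAC+PUE) against 36.9, 38.8 and 34.97 FPKM (TAC). Srf missed the threshold as deposited (-0.42, adjusted p = 0.0547) and passed it after scaling (-0.77, adjusted p = 0.01098). Without TAC+PUE replicate 2 it also passed as deposited (adjusted p = 0.0205).

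The sarcomere, the contractile unit of the muscle, was divided. Its list had 7 of 25 genes tested higher and 7 lower as deposited (28 and 28%, against 32.5 and 5.29% of all genes), and 2 higher and 13 lower after scaling (8 and 52%, against 18.3 and 22.8%). The 7 higher genes numbered 4 with TAC+PUE replicate 1 or TAC replicates 1 or 3 left out. The 7 lower genes numbered 3 with TAC+PUE replicate 1 or TAC replicate 1 left out and 4 with TAC+PUE replicate 3 or TAC replicate 2. The largest increases were in proteins that hold the filaments in place. Ttn, the giant spring titin, stood at 362, 241 and 299.5 FPKM in the TAC+PUE hearts, against 129, 177 and 179.6 FPKM in the TAC hearts. Ttn rose by 0.89 on the log2 scale (SE 0.2, and 0.53 after scaling). Nexn, an actin-binding Z-disc protein, was at 93.2, 56.6 and 69.7 FPKM (TAC+PUE) against 20.9, 28.1 and 33.7 FPKM (TAC). Nexn rose by 1.38 on the log2 scale (SE 0.22, and 1.03 after scaling).

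The 7 lower genes included the 3 troponin genes of the list. Troponins and tropomyosin form the calcium switch of the thin filament. Tnni3, the inhibitory troponin of heart muscle, stood at 608, 782 and 736 FPKM in the TAC+PUE hearts, against 1976, 1186 and 1410 FPKM in the TAC hearts. Tnni3 fell by 1.08 on the log2 scale (SE 0.22, and -1.44 after scaling), and its treated hearts were near the sham mean of 699 FPKM. Tnnc1, the calcium-binding troponin, was at 1046, 1269 and 993 FPKM (TAC+PUE) against 1962, 1765 and 1504 FPKM (TAC). Tnnc1 fell by 0.66 on the log2 scale (-1.02 after scaling). Myl3, the essential light chain of the ventricle, stood at 716, 867 and 798 FPKM in the TAC+PUE hearts, against 1311, 1367 and 1243 FPKM in the TAC hearts. Myl3 fell by 0.72 on the log2 scale (SE 0.17, and -1.08 after scaling), with a sham mean of 681 FPKM. The others, named after their values were seen, were Tnnt2 (-0.63), the tropomyosin gene Tpm1 (-0.72), Mybpc3 (-0.56) and Csrp3 (-0.55), in log2 changes. Tnnc1, Mybpc3 and Csrp3 missed the threshold without TAC+PUE replicates 1 or 3 or TAC replicates 1 or 2 (adjusted p = 0.0507 to 0.177). Tnnt2 missed the threshold without TAC+PUE replicate 1 or TAC replicate 1 (adjusted p = 0.0503 to 0.0677).

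Myh6, Actc1 and Mb, which encode the fast myosin heavy chain, cardiac actin and myoglobin, are among the most abundant mRNAs of the heart. They did not pass as deposited (log2 changes of -0.42, -0.36 and -0.35) and were lower after scaling (-0.77, -0.71 and -0.71).

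Calcium cycling sets each beat, and its list had 9 of 27 genes tested higher and 2 lower as deposited (33.3 and 7.41%, against 32.5 and 5.29% of all genes), and 4 higher and 7 lower after scaling (14.8 and 25.9%, against 18.3 and 22.8%). The 9 higher genes numbered 4 with TAC replicate 1 left out and 5 with TAC+PUE replicate 1. Pln, phospholamban, is the brake on the calcium pump of the sarcoplasmic reticulum. Pln stood at 201, 121 and 173 FPKM in the TAC+PUE hearts, against 33.05, 58.9 and 65.01 FPKM in the TAC hearts. All treated hearts were above all untreated ones, as in 43.3% of all genes, and below the sham mean of 218 FPKM. Pln rose by 1.67 on the log2 scale (SE 0.26, and 1.31 after scaling). Calm2, a calmodulin gene, was at 66.8, 54.7 and 53.1 FPKM (TAC+PUE) against 16.8, 24.3 and 30.1 FPKM (TAC). Trdn, triadin, which anchors the calcium release channel, was at 25.2, 15.3 and 20.5 FPKM (TAC+PUE) against 5.96, 9.41 and 11.5 FPKM (TAC). Calm2 rose by 1.29 on the log2 scale (0.94 after scaling) and Trdn rose by 1.11 on the log2 scale (0.79 after scaling). Cacnb2, a subunit of the L-type calcium channel, rose by 0.93 on the log2 scale (0.66 after scaling). The lower genes, named after their values were seen, were Jph2 (-0.92), which ties the sarcoplasmic reticulum to the cell membrane, and the calmodulin gene Calm3 (-0.49). Calmodulin genes encode the same protein, so reads may be split between them.

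Receptors for hormones and nerves had 4 of 15 genes tested higher and 1 lower as deposited (26.7 and 6.67%, against 32.5 and 5.29% of all genes), and 2 higher and 3 lower after scaling (13.3 and 20%, against 18.3 and 22.8%). Chrm2, the muscarinic receptor through which the vagus slows the heart, was at 21.02, 13.9 and 18.1 FPKM (TAC+PUE) against 5.26, 7.06 and 9.2 FPKM (TAC). Chrm2 rose by 1.2 on the log2 scale (SE 0.21, and 0.88 after scaling). Adrb1, the main adrenergic receptor of heart muscle, was at 9.87, 10.3 and 10.96 FPKM (TAC+PUE) against 13.4, 15.7 and 15.02 FPKM (TAC). Adrb1 fell by 0.46 on the log2 scale (SE 0.14, and -0.79 after scaling). Adrb1 missed the threshold without TAC+PUE replicates 1, 2 or 3 or TAC replicates 2 or 3 (adjusted p = 0.0502 to 0.104). In the calcium list, Calm3 missed the threshold without TAC+PUE replicates 1 or 3 or TAC replicates 2 or 3 (adjusted p = 0.066 to 0.135).

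The matrix list held large opposite changes. The list had 13 of 36 genes tested higher and 4 lower as deposited (36.1 and 11.1%, against 32.5 and 5.29% of all genes), and 11 higher and 11 lower after scaling (30.6 and 30.6%, against 18.3 and 22.8%). The 4 lower genes numbered 1 with TAC+PUE replicate 3 or TAC replicate 1 left out and 10 with TAC+PUE replicate 2. The median log2 changes of 0.32 and -0.02 were near those of all genes. The largest increases were in small leucine-rich proteoglycans, which coat collagen fibrils, and in matricellular proteins. Fmod, fibromodulin, stood at 8.94, 12.9 and 11.8 FPKM in the TAC+PUE hearts, against 1.43, 0.845 and 3.1 FPKM in the TAC hearts. Fmod rose by 2.2 on the log2 scale (SE 0.26, and 1.93 after scaling). Lum, lumican, stood at 36.8, 32.2 and 27.2 FPKM in the TAC+PUE hearts, against 5.26, 11.5 and 12.5 FPKM in the TAC hearts. Lum rose by 1.69 on the log2 scale (SE 0.26, and 1.36 after scaling). Postn, periostin of activated fibroblasts, stood at 42.5, 26.3 and 22.1 FPKM in the TAC+PUE hearts, against 5.13, 10.3 and 5.72 FPKM in the TAC hearts. Postn rose by 1.96 on the log2 scale (SE 0.27, and 1.63 after scaling). Comp, a relative of Thbs4 from the same family, was at 13.1, 27.9 and 20.1 FPKM (TAC+PUE) against 7.04, 3.16 and 8.58 FPKM (TAC). Comp rose by 1.58 on the log2 scale (SE 0.32, and 1.26 after scaling). Fmod and Comp were hardly detected in sham hearts, at means of 0.1896 and 0.704 FPKM.

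Collagens were among the lower genes. The 4 lower genes of the list, named after their values were seen, were Col1a1, Col3a1, Col5a1 (-0.76) and Col4a2 (-0.71). Among the 13 higher genes, Col12a1 (1.38) was the 1 collagen. Col1a1 was at 63.1, 91.9 and 51.2 FPKM in the TAC+PUE hearts, against 139, 114 and 103 FPKM in the TAC hearts. Col1a1 fell by 0.81 on the log2 scale (SE 0.22, and -1.16 after scaling). Col3a1 was at 89.9, 125 and 67.1 FPKM in the TAC+PUE hearts, against 184, 139 and 137 FPKM in the TAC hearts. Col3a1 fell by 0.73 on the log2 scale (SE 0.23, and -1.08 after scaling). The sham means of 25.3 FPKM for Col1a1 and 42.2 FPKM for Col3a1 were below both groups. Col5a3, which the list does not hold, stood at 10.8, 13.01 and 4.86 FPKM in the TAC+PUE hearts, against 23.2, 19.02 and 20.8 FPKM in the TAC hearts. Col5a3 fell by 1.15 on the log2 scale (SE 0.27, and -1.48 after scaling). Col1a1 missed the threshold without TAC+PUE replicate 3 or TAC replicate 1 (adjusted p = 0.0556 to 0.0717). Col3a1 missed the threshold without TAC+PUE replicates 1 or 3 or TAC replicate 1 (adjusted p = 0.0582 to 0.113). Col4a2 missed the threshold without TAC+PUE replicate 3 or TAC replicates 1 or 2 (adjusted p = 0.0666 to 0.134). Col5a3 missed the threshold without TAC replicate 1 (adjusted p = 0.0595).

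**Figure D3:**
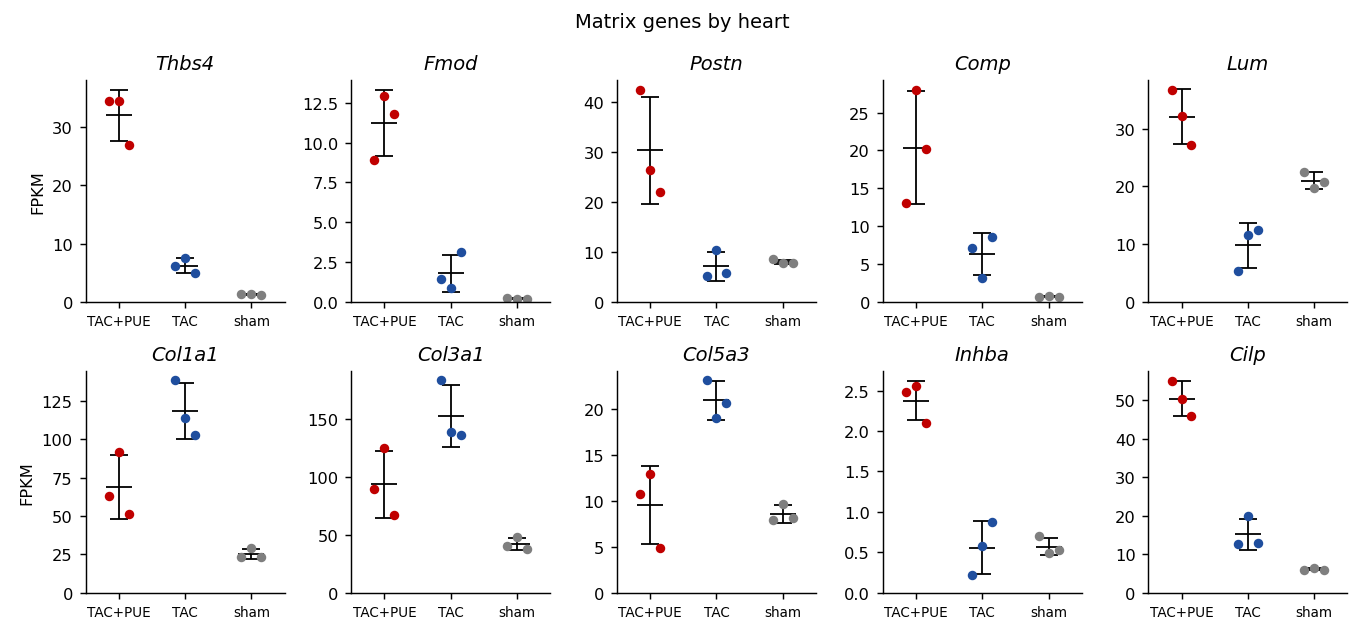
FPKM of 10 genes of the matrix and of TGF-beta signalling in each heart of the TAC+PUE, TAC and sham groups (1 point a heart, each panel from 0), with marks at the mean and bars of 1 SD. Thbs4, Fmod, Postn, Comp, Lum, Inhba and Cilp were highest in TAC+PUE hearts, and Col1a1, Col3a1 and Col5a3 were highest in TAC hearts.

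Transforming growth factor beta is the ligand best known for turning fibroblasts towards matrix production. Its signalling list had 12 of 27 genes tested higher and 0 lower as deposited (44.4 and 0%, against 32.5 and 5.29% of all genes), and 8 higher and 3 lower after scaling (29.6 and 11.1%, against 18.3 and 22.8%). Inhba, a subunit of the related ligand activin A, was at 2.48, 2.55 and 2.097 FPKM in the TAC+PUE hearts, against 0.219, 0.5795 and 0.872 FPKM in the TAC hearts. Inhba rose by 1.14 on the log2 scale (SE 0.17, and 0.97 after scaling). Of the receptors, Tgfbr1 was at 6.66, 4.86 and 5.18 FPKM (TAC+PUE) against 1.695, 2.501 and 2.75 FPKM (TAC). Bmpr1a, a receptor of bone morphogenetic proteins, was at 21.99, 15.4 and 17.4 FPKM (TAC+PUE) against 5.89, 8.45 and 7.801 FPKM (TAC). Tgfbr1 rose by 0.99 on the log2 scale (0.72 after scaling) and Bmpr1a rose by 1.2 on the log2 scale (0.88 after scaling). All treated hearts were above all untreated ones for these 3 genes. The same held for 12 of the 27 genes of the list and for 43.3% of all genes. The list is made of long genes, with a median span of 61705 bases.

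Insulin-like growth factors act through a receptor and the kinase Akt on growth of heart muscle. The list of this axis had 11 of 23 genes tested higher and 1 lower as deposited (47.8 and 4.35%, against 32.5 and 5.29% of all genes), and 4 higher and 3 lower after scaling (17.4 and 13.04%, against 18.3 and 22.8%). The 11 higher genes numbered 6 with TAC+PUE replicate 1 or TAC replicates 1 or 2 left out, and between 0 and 3 were lower with any 1 heart left out. The ligand Igf1 stood at 6.95, 5.71 and 4.402 FPKM in the TAC+PUE hearts, against 1.33, 2.03 and 2.05 FPKM in the TAC hearts. Igf1 rose by 1.25 on the log2 scale (SE 0.18, and 0.99 after scaling), and its treated hearts were above the sham mean of 3.49 FPKM. The ligand Igf2 was at 5.33, 9.24 and 13.5 FPKM (TAC+PUE) against 11.5, 6.94 and 13.1 FPKM (TAC). Its groups overlapped (log2 change -0.19, adjusted p = 0.626). Igf2r, the receptor that clears Igf2, was at 34.7, 36.05 and 33.5 FPKM (TAC+PUE) against 24.8, 29.6 and 29.9 FPKM (TAC). It did not pass the test, with a log2 change of 0.3 as deposited (adjusted p = 0.124) and -0.04 after scaling. Igf2bp2, an RNA-binding protein, was at 1.17, 0.87 and 0.694 FPKM (TAC+PUE) against 0.657, 0.714 and 0.962 FPKM (TAC) and was too low to be tested.

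The kinase Akt1 was the lower gene of the list as deposited. Akt1 was at 47.1, 62.2 and 45.1 FPKM in the TAC+PUE hearts, against 77.5, 82.2 and 77.05 FPKM in the TAC hearts. Akt1 fell by 0.62 on the log2 scale (SE 0.16, and -0.97 after scaling). The binding proteins Igfbp4 and Igfbp6 did not pass as deposited (log2 changes of -0.68 and -0.39, adjusted p = 0.104 and 0.337). In both, the highest of the treated hearts was TAC+PUE replicate 2. After scaling Igfbp4 passed as lower (-1.03). As deposited and without that heart both passed as lower (adjusted p = 0.01101 and 0.0158). Akt1 missed the threshold without TAC+PUE replicate 3 (adjusted p = 0.0677).

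AMPK with mTOR, Nrf2 and Jak-STAT signalling have been studied in connection with puerarin. AMPK is a sensor of low energy and mTOR a driver of growth, and their list had 5 of 24 genes tested higher and 0 lower as deposited (20.8 and 0%, against 32.5 and 5.29% of all genes), and 5 higher and 4 lower after scaling (20.8 and 16.7%, against 18.3 and 22.8%). Of the catalytic subunits of AMPK, Prkaa1 was at 6.52, 4.704 and 4.95 FPKM (TAC+PUE) against 1.74, 2.27 and 3.06 FPKM (TAC). Prkaa2, the form of heart muscle, was at 25.9, 17.5 and 19.2 FPKM (TAC+PUE) against 7.78, 12.6 and 12.3 FPKM (TAC). Prkaa1 rose by 0.94 on the log2 scale (0.67 after scaling) and Prkaa2 rose by 0.89 on the log2 scale (0.56 after scaling). Rps6kb1, the S6 kinase below mTOR, rose by 0.94 on the log2 scale (0.67 after scaling). Rictor of the second mTOR complex rose by 0.74 on the log2 scale (0.52 after scaling).

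Antioxidant defence under Nrf2 had 8 of 30 genes tested higher and 1 lower as deposited (26.7 and 3.33%, against 32.5 and 5.29% of all genes), and 2 higher and 5 lower after scaling (6.67 and 16.7%, against 18.3 and 22.8%). The 8 higher genes numbered 3 with TAC+PUE replicate 1 left out, 4 with TAC+PUE replicates 2 or 3 and 5 with TAC replicate 1. Nfe2l2, the gene of Nrf2, stood at 18.3, 18.02 and 18.4 FPKM in the TAC+PUE hearts, against 6.57, 9.23 and 9.37 FPKM in the TAC hearts. Nfe2l2 rose by 1.05 on the log2 scale (SE 0.16, and 0.72 after scaling). Its target Nqo1 stood at 23.7, 20.3 and 18.2 FPKM in the TAC+PUE hearts, against 5.63, 11.6 and 7.71 FPKM in the TAC hearts. Nqo1 rose by 1.26 on the log2 scale (SE 0.22, and 0.94 after scaling). Prdx1, another target, was higher as deposited only, with log2 changes of 0.63 and 0.3. Jak-STAT with gp130 had 6 of 21 genes tested higher and 1 lower as deposited (28.6 and 4.76%, against 32.5 and 5.29% of all genes), and 3 higher and 6 lower after scaling (14.3 and 28.6%, against 18.3 and 22.8%). The 6 higher genes numbered 3 with TAC+PUE replicates 2 or 3 or TAC replicate 1 left out. Osmr, the receptor of oncostatin M, was at 3.901, 3.27 and 3.53 FPKM (TAC+PUE) against 0.8399, 1.35 and 1.498 FPKM (TAC). Jak2 was at 10.3, 8.41 and 9.94 FPKM (TAC+PUE) against 4.23, 5.197 and 6.04 FPKM (TAC). Osmr rose by 1.04 on the log2 scale (0.81 after scaling) and Jak2 rose by 0.78 on the log2 scale (0.47 after scaling). Pim3, a kinase and target of STAT3, was at 14.5, 28.8 and 22.6 FPKM (TAC+PUE) against 38.97, 33.8 and 38.7 FPKM (TAC). Pim3 fell by 0.78 on the log2 scale (-1.12 after scaling). Prdx1 missed the threshold without TAC+PUE replicates 1 or 2 or TAC replicate 1 (adjusted p = 0.0589 to 0.0789). Pim3 missed the threshold without TAC+PUE replicate 1 or TAC replicate 1 (adjusted p = 0.05798 to 0.0764).

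Translation factors had 20 of 46 genes tested higher and 0 lower as deposited (43.5 and 0%, against 32.5 and 5.29% of all genes), and 10 higher and 11 lower after scaling (21.7 and 23.9%, against 18.3 and 22.8%). The 20 higher genes numbered 13 with TAC+PUE replicate 1 left out. Eif3e, a subunit of an initiation complex, stood at 12.04, 9.21 and 11 FPKM in the TAC+PUE hearts, against 1.71, 3.54 and 3.89 FPKM in the TAC hearts. Eif3e rose by 1.58 on the log2 scale (SE 0.22, and 1.29 after scaling). Eif4a2, a helicase that opens mRNAs for the ribosome, rose by 1.13 on the log2 scale (0.81 after scaling). Cytosolic ribosomal proteins had 21 of 81 genes tested higher and 2 lower as deposited (25.9 and 2.47%, against 32.5 and 5.29% of all genes), and 8 higher and 22 lower after scaling (9.88 and 27.2%, against 18.3 and 22.8%). The 21 higher genes numbered 11 with TAC replicate 1 left out, 12 with TAC+PUE replicate 3 or TAC replicate 2 and 13 with TAC+PUE replicate 2. Between 0 and 5 were lower with any 1 heart left out. Rpl39, a gene with many processed copies whose reads may be shared, was at 34.8, 43.8 and 40.3 FPKM (TAC+PUE) against 9.71, 18.5 and 22.3 FPKM (TAC). Rpl39 rose by 1.26 on the log2 scale (0.92 after scaling). Heat shock and unfolded protein genes had 16 of 38 genes tested higher and 0 lower as deposited (42.1 and 0%, against 32.5 and 5.29% of all genes), and 8 higher and 4 lower after scaling (21.1 and 10.5%, against 18.3 and 22.8%). Dnajb9, a chaperone of the endoplasmic reticulum, was at 13.4, 8.502 and 10.3 FPKM (TAC+PUE) against 2.37, 3.69 and 3.54 FPKM (TAC). Dnajb9 rose by 1.48 on the log2 scale (1.18 after scaling). Hsp90aa1, the inducible Hsp90, rose by 0.97 on the log2 scale (0.64 after scaling).

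Proteasome subunits had 14 of 39 genes tested higher and 1 lower as deposited (35.9 and 2.56%, against 32.5 and 5.29% of all genes), and 9 higher and 10 lower after scaling (23.1 and 25.6%, against 18.3 and 22.8%). Psma3 rose by 1.12 on the log2 scale (0.8 after scaling) and Psmc6 rose by 1.1 on the log2 scale (0.77 after scaling). Ubiquitin ligases of muscle and autophagy genes had 8 of 26 genes tested higher and 0 lower as deposited (30.8 and 0%, against 32.5 and 5.29% of all genes), and 2 higher and 7 lower after scaling (7.69 and 26.9%, against 18.3 and 22.8%). The 8 higher genes numbered 3 with TAC replicate 1 left out, 4 with TAC+PUE replicate 3 and 5 with TAC+PUE replicate 1. Fbxo32, the atrophy ligase atrogin-1, was at 35.1, 33.6 and 29.8 FPKM (TAC+PUE) against 17.6, 20.3 and 21.6 FPKM (TAC). Fbxo32 rose by 0.7 on the log2 scale (SE 0.15, and 0.36 after scaling). Bnip3, a receptor that marks mitochondria for removal, was at 43.9, 38.2 and 30.9 FPKM (TAC+PUE) against 14.8, 20.1 and 17.5 FPKM (TAC). Bnip3 rose by 1.06 on the log2 scale (SE 0.18, and 0.72 after scaling).

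Beside the mitochondrial mRNAs, the lists with the largest shares of genes higher as deposited were zinc finger genes and splicing factors. The table had 321 genes with a numbered Zfp name, many of which encode DNA-binding repressors, and 244 were tested. As deposited 137 (56.1%) were higher and 8 lower, against 32.5 and 5.29% of all genes. After scaling 93 (38.1%) were higher and 34 lower, against 18.3 and 22.8%. The 8 lower genes numbered 1 with TAC+PUE replicate 3 left out, 2 with TAC+PUE replicate 1 or TAC replicate 1 and 3 with TAC replicate 2. Zfp52 stood at 6.77, 3.85 and 4.803 FPKM in the TAC+PUE hearts, against 0.782, 1.01 and 1.11 FPKM in the TAC hearts. Zfp52 rose by 1.62 on the log2 scale (SE 0.18, and 1.38 after scaling). Zfp160 stood at 4.66, 2.402 and 3.31 FPKM in the TAC+PUE hearts, against 0.491, 0.642 and 1.199 FPKM in the TAC hearts. Zfp160 rose by 1.31 on the log2 scale (SE 0.21, and 1.11 after scaling). Zinc finger genes share repeated domains, so the split of reads between relatives is uncertain.

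Splicing factors had 27 of 50 genes tested higher and 1 lower as deposited (54 and 2%, against 32.5 and 5.29% of all genes), and 13 higher and 3 lower after scaling (26 and 6%, against 18.3 and 22.8%). Kinases of splicing factors led the list. Prpf4b was at 8.86, 6.59 and 7.58 FPKM (TAC+PUE) against 2.47, 2.93 and 2.99 FPKM (TAC). Clk1 was at 7.92, 6.14 and 7.35 FPKM (TAC+PUE) against 2.21, 2.72 and 2.997 FPKM (TAC). Prpf4b rose by 1.19 on the log2 scale (0.9 after scaling) and Clk1 rose by 1.16 on the log2 scale (0.87 after scaling). Sf3b1 of the U2 particle rose by 1.06 on the log2 scale (0.74 after scaling). Sham means were 5.52 FPKM for Zfp52, 9.27 for Prpf4b and 9.21 for Clk1. They lay nearer to the treated than to the untreated hearts, in genes chosen by their treated and untreated values.

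**Figure D4:**
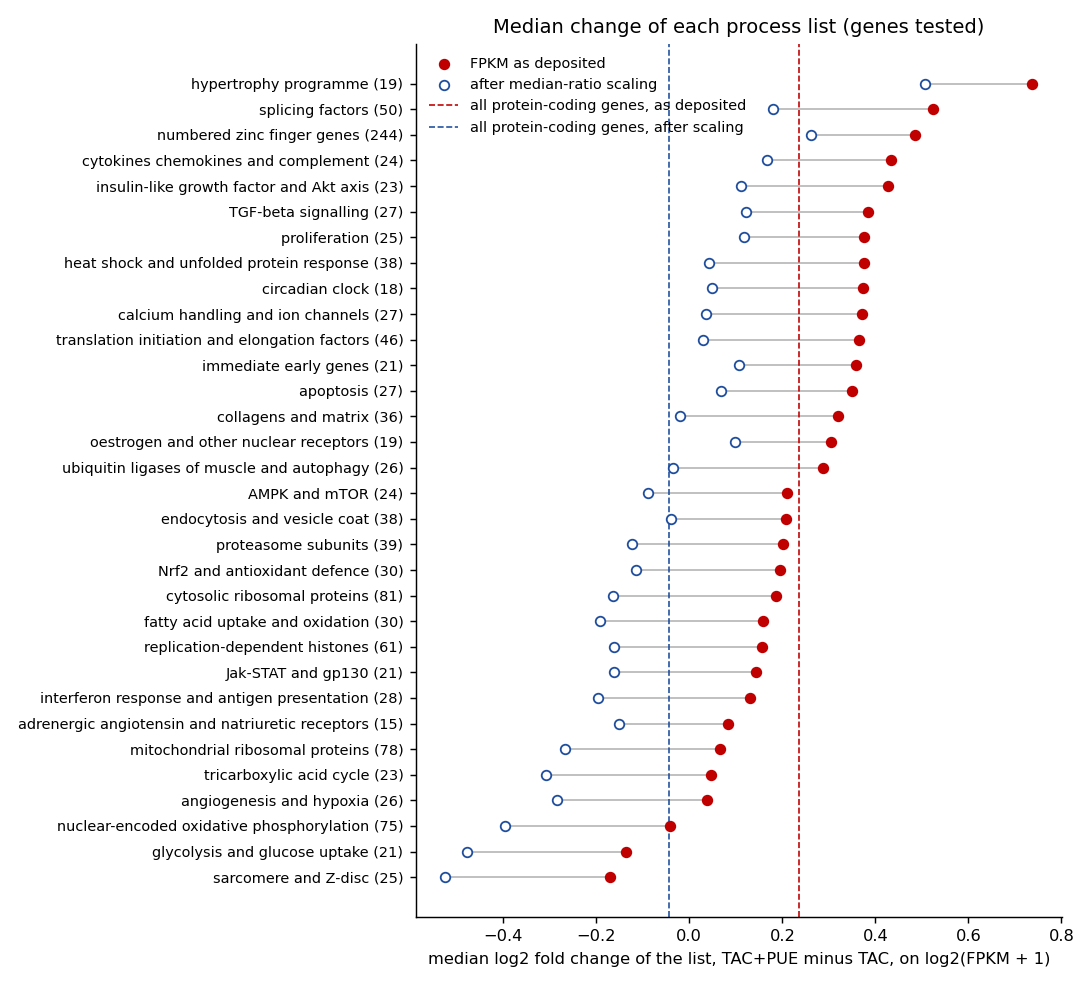
Median log2 fold change, TAC+PUE minus TAC, of 32 process lists of nuclear genes as deposited (filled) and after median-ratio scaling (open), with the genes tested in brackets and dashed lines at the medians of all protein-coding genes, 0.24 and -0.04. The hypertrophy programme lies highest and the sarcomere lowest in both.

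The circadian clock had 3 of 18 genes tested higher and 0 lower as deposited (16.7 and 0%, against 32.5 and 5.29% of all genes), and 3 higher and 0 lower after scaling (16.7 and 0%, against 18.3 and 22.8%). The 3 higher genes numbered 5 with TAC+PUE replicate 2 left out and 6 with TAC+PUE replicate 1. Nr1d2, the repressor REV-ERB beta, stood at 18.3, 16.2 and 28.9 FPKM in the TAC+PUE hearts, against 5.42, 7.25 and 9.16 FPKM in the TAC hearts. Nr1d2 rose by 1.4 on the log2 scale (SE 0.23, and 1.08 after scaling). The activator Clock stood at 7.18, 4.06 and 3.6 FPKM in the TAC+PUE hearts, against 1.04, 2.04 and 2.11 FPKM in the TAC hearts. Clock rose by 1.1 on the log2 scale (SE 0.24, and 0.85 after scaling). Rora, another activator, rose by 0.8 on the log2 scale (0.54 after scaling). The hour of tissue collection is not in the labels, and its part in these clock genes was not tested. Nuclear receptors had 7 of 19 genes tested higher and 2 lower as deposited (36.8 and 10.5%, against 32.5 and 5.29% of all genes), and 4 higher and 7 lower after scaling (21.1 and 36.8%, against 18.3 and 22.8%). The 7 higher genes numbered 4 with TAC+PUE replicates 1 or 3 or TAC replicate 1 left out, and between 1 and 3 were lower with any 1 heart left out. Nr3c1, the glucocorticoid receptor, was at 19.6, 13.7 and 16.2 FPKM (TAC+PUE) against 6.403, 9.18 and 10.1 FPKM (TAC). Thrb, a thyroid hormone receptor, was at 3.98, 2.82 and 3.29 FPKM (TAC+PUE) against 1.06, 1.08 and 2.08 FPKM (TAC). Nr3c1 rose by 0.88 on the log2 scale (0.56 after scaling) and Thrb rose by 0.88 on the log2 scale (0.64 after scaling). The corepressor Nrip1 rose by 0.99 on the log2 scale (0.72 after scaling). Immediate early genes had 4 of 21 genes tested higher and 2 lower as deposited (19.1 and 9.52%, against 32.5 and 5.29% of all genes), and 2 higher and 2 lower after scaling (9.52 and 9.52%, against 18.3 and 22.8%). The 4 higher genes numbered 1 with TAC replicate 1 left out, 2 with TAC+PUE replicate 2 or TAC replicate 3 and 8 with TAC+PUE replicate 3. Between 0 and 4 were lower with any 1 heart left out. Klf6 rose by 0.81 on the log2 scale (0.47 after scaling), and Jund of the AP-1 factor fell by 0.77 on the log2 scale (-1.12 after scaling). Jund missed the threshold without TAC+PUE replicates 1 or 3 or TAC replicates 1 or 2 (adjusted p = 0.0522 to 0.1004).

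Cytokines, chemokines and complement had 10 of 24 genes tested higher and 3 lower as deposited (41.7 and 12.5%, against 32.5 and 5.29% of all genes), and 5 higher and 5 lower after scaling (20.8 and 20.8%, against 18.3 and 22.8%). The 10 higher genes numbered 6 with TAC+PUE replicate 3 or TAC replicate 1 left out. The chemokine Ccl5 stood at 5.39, 5.84 and 7.32 FPKM in the TAC+PUE hearts, against 0.993, 1.44 and 3.16 FPKM in the TAC hearts. Ccl5 rose by 1.39 on the log2 scale (SE 0.24, and 1.14 after scaling). The interferon and antigen presentation list had 4 of 28 genes tested higher and 1 lower as deposited (14.3 and 3.57%, against 32.5 and 5.29% of all genes), and 2 higher and 8 lower after scaling (7.14 and 28.6%, against 18.3 and 22.8%). The 4 higher genes numbered 1 with TAC replicate 1 left out, 2 with TAC+PUE replicate 1 or TAC replicate 2 and 9 with TAC replicate 3. Its median log2 change was 0.13, and -0.14 without TAC replicate 2. B2m, the light chain of class I antigen presentation, stood at 495, 349.6 and 448 FPKM in the TAC+PUE hearts, against 81.5, 129 and 205 FPKM in the TAC hearts. B2m rose by 1.72 on the log2 scale (SE 0.29, and 1.36 after scaling), and all treated hearts were above its sham mean of 228 FPKM. Bst2, an interferon-induced antiviral protein, fell by 0.85 on the log2 scale (-1.19 after scaling). Bst2 missed the threshold without TAC+PUE replicates 1 or 3 or TAC replicates 1 or 3 (adjusted p = 0.0513 to 0.0681).

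Genes of angiogenesis and hypoxia had 6 of 26 genes tested higher and 1 lower as deposited (23.1 and 3.85%, against 32.5 and 5.29% of all genes), and 3 higher and 8 lower after scaling (11.5 and 30.8%, against 18.3 and 22.8%). The 6 higher genes numbered 3 with TAC+PUE replicate 1 or TAC replicate 1 left out. Angpt1, a ligand that steadies vessels, was at 8.21, 10.5 and 7.32 FPKM (TAC+PUE) against 1.48, 1.2 and 4.45 FPKM (TAC). Notch4 of endothelium was at 6.89, 10.98 and 7.04 FPKM (TAC+PUE) against 16.5, 16.6 and 12.4 FPKM (TAC). Angpt1 rose by 1.63 on the log2 scale (1.36 after scaling) and Notch4 fell by 0.82 on the log2 scale (-1.14 after scaling). Apoptosis genes had 9 of 27 genes tested higher and 4 lower as deposited (33.3 and 14.8%, against 32.5 and 5.29% of all genes), and 6 higher and 7 lower after scaling (22.2 and 25.9%, against 18.3 and 22.8%). The 4 lower genes numbered 1 with TAC+PUE replicate 1 left out and 2 with TAC+PUE replicate 3 or TAC replicate 2. The death receptor Fas was at 5.15, 4.85 and 4.61 FPKM (TAC+PUE) against 1.51, 1.63 and 2.17 FPKM (TAC). Endog, a nuclease that mitochondria release in cell death, was at 30.2, 42.02 and 31.4 FPKM (TAC+PUE) against 54.7, 67.1 and 60.9 FPKM (TAC). Fas rose by 1.09 on the log2 scale (0.83 after scaling) and Endog fell by 0.81 on the log2 scale (-1.16 after scaling). Proliferation genes had 8 of 25 genes tested higher and 0 lower as deposited (32 and 0%, against 32.5 and 5.29% of all genes), and 2 higher and 1 lower after scaling (8 and 4%, against 18.3 and 22.8%). The 8 higher genes numbered 1 with TAC replicate 1 left out, 3 with TAC+PUE replicate 1 and 5 with TAC replicate 2. Mcm4, which licenses replication, rose by 0.68 on the log2 scale (SE 0.15, and 0.42 after scaling). Replication-dependent histones had 11 of 61 genes tested higher and 4 lower as deposited (18.03 and 6.56%, against 32.5 and 5.29% of all genes), and 4 higher and 16 lower after scaling (6.56 and 26.2%, against 18.3 and 22.8%). The 11 higher genes numbered 4 with TAC replicate 1 left out, 5 with TAC+PUE replicates 1 or 2 and 19 with TAC+PUE replicate 3. The 4 lower genes numbered 0 with TAC replicate 1 left out, 1 with TAC+PUE replicates 1 or 3 or TAC replicate 3, 2 with TAC replicate 2 and 12 with TAC+PUE replicate 2. Their mRNAs lack poly(A) tails, and near-identical copies make single members such as Hist2h2bb (0.86) uncertain. Endocytosis and vesicle coats had 12 of 38 genes tested higher and 4 lower as deposited (31.6 and 10.5%, against 32.5 and 5.29% of all genes), and 9 higher and 10 lower after scaling (23.7 and 26.3%, against 18.3 and 22.8%). The 4 lower genes numbered 0 with TAC+PUE replicate 1 left out, 1 with TAC+PUE replicate 3 and 2 with TAC replicate 2. Cav2 of caveolae rose by 1.3 on the log2 scale (0.99 after scaling) and Vps35 of the retromer rose by 1.12 on the log2 scale (0.82 after scaling).

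Markers of the cell types that a heart sample can hold were read beside these results, and their part in the results was not tested. Of all genes 32.5% were higher and 5.29% lower as deposited, and 18.3% higher and 22.8% lower after scaling. Red blood cell genes had 0 of 8 tested higher and 3 lower as deposited, and 0 higher and 4 lower after scaling. The 3 lower genes numbered 1 with TAC+PUE replicate 1 or TAC replicates 1 or 3 left out and 7 with TAC+PUE replicate 3. Red blood cell genes summed to 1537 to 6096 FPKM in TAC+PUE hearts and 5293 to 7722 FPKM in TAC hearts. Hba-a1, an alpha globin gene, was at 404, 934 and 1353 FPKM (TAC+PUE) against 1575, 1459 and 1924 FPKM (TAC). Atrial markers had 3 of 13 tested higher and 0 lower as deposited, and 1 higher and 0 lower after scaling. The 3 higher genes numbered 1 with TAC replicate 1 left out and 6 with TAC+PUE replicate 1 or TAC replicate 3. Their sums were 719 to 3967 FPKM in TAC+PUE hearts and 663 to 1011 FPKM in TAC hearts. Ventricular markers had 0 of 7 tested higher and 2 lower as deposited, and 0 higher and 5 lower after scaling. They came to 2243 to 2771 FPKM in TAC+PUE hearts and 2887 to 3345 FPKM in TAC hearts.

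Macrophage markers had 3 of 15 tested higher and 3 lower as deposited, and 1 higher and 6 lower after scaling. The 3 higher genes numbered 1 with TAC+PUE replicates 1 or 2 or TAC replicate 1 left out. The ones lower as deposited were the complement genes C1qa (-0.64), C1qb (-0.63) and C1qc (-0.76). Of the 3 higher genes, Ms4a7 was at 1.96, 1.537 and 1.496 FPKM (TAC+PUE) against 0.4837, 0.6158 and 0.7901 FPKM (TAC). Ms4a7 rose by 0.71 on the log2 scale (0.53 after scaling) and was called higher in both scalings. Calls of Ms4a7 with 1 heart left out are not given. Named members of the macrophage list thus went in both directions. The macrophage sums were 431 to 542 FPKM in TAC+PUE hearts and 534 to 632 FPKM in TAC hearts. Fibroblast markers had 3 of 14 tested higher and 3 lower as deposited, and 2 higher and 5 lower after scaling. The 3 higher genes numbered 6 with TAC replicate 3 left out, and the 3 lower genes numbered 0 with TAC replicate 1 left out. Decorin, Dcn, was at 78.8, 81.0 and 86.4 FPKM (TAC+PUE) against 32.9, 37.9 and 51.1 FPKM (TAC). Dcn rose by 1.02 on the log2 scale (0.67 after scaling), while Clec3b fell by 0.95 on the log2 scale (-1.29 after scaling). The fibroblast sums were 694 to 1026 FPKM in TAC+PUE hearts and 907 to 1131 FPKM in TAC hearts. Endothelial markers had 5 of 17 tested higher and 2 lower as deposited, and 2 higher and 6 lower after scaling. The 5 higher genes numbered 3 with TAC+PUE replicate 1 left out, and between 0 and 4 were lower with any 1 heart left out. Pecam1 of endothelium was at 35.6, 45.03 and 33.6 FPKM (TAC+PUE) against 16.03, 21.6 and 25.5 FPKM (TAC). Pecam1 rose by 0.84 on the log2 scale (0.49 after scaling). Smooth muscle and pericyte markers had 2 of 12 tested higher and 2 lower as deposited, and 1 higher and 5 lower after scaling. Between 2 and 4 were higher with any 1 heart left out. Mustn1 and Rgs5 both rose by 0.82 on the log2 scale (0.55 and 0.47 after scaling, where Rgs5 was not called). Kcnj8 of pericytes fell by 0.62 on the log2 scale (-0.96 after scaling) and Notch3 by 0.48 (-0.81 after scaling). Calls of Mustn1, Rgs5 and Notch3 with 1 heart left out are not given. The smooth muscle and pericyte sums were 290 to 399 FPKM in TAC+PUE hearts and 208.5 to 278 FPKM in TAC hearts. Ptprc, the surface protein CD45 of white blood cells, was at 2.79, 1.75 and 2.59 FPKM (TAC+PUE) against 0.554, 0.679 and 1.21 FPKM (TAC). Ptprc rose by 0.9 on the log2 scale (0.71 after scaling). It was the 1 gene higher of the 3 tested in the lymphocyte list, and 0 were lower, in both scalings. Of the 2 neutrophil markers tested, 0 were called in either scaling.

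Of the 5 markers of fat tested, the 3 of nerve and the 1 of cartilage, bone and thymus, 0 were called as deposited, and 1 of the fat markers, Pnpla2, was lower after scaling. Of 3 skeletal muscle markers, 1 was lower, Ckm (-0.55), which heart muscle also makes, and 2 were lower after scaling. Of 7 mesothelial markers, 1 was higher, Gpm6a (0.91), which was not called after scaling (0.7). None of the 11 lung and airway markers was in the table. Hba-a1 missed the threshold without TAC+PUE replicate 1 or TAC replicates 1 or 3 (adjusted p = 0.104 to 0.129). C1qa missed the threshold without TAC+PUE replicate 1 (adjusted p = 0.0566). Clec3b missed the threshold without TAC replicates 1 or 3 (adjusted p = 0.0547 to 0.05705). Kcnj8 missed the threshold without TAC+PUE replicates 1 or 3 (adjusted p = 0.0538 to 0.0581). Ckm missed the threshold without TAC+PUE replicates 1 or 3 or TAC replicate 2 (adjusted p = 0.0666 to 0.107). Gpm6a missed the threshold without TAC+PUE replicate 2 or TAC replicates 1 or 2 (adjusted p = 0.0597 to 0.149).

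The direction of change went with the span of the gene in the genome, a property that the choice of members did not use. A RefSeq span was known for 11052 of the protein-coding genes tested. The shortest decile (375 to 4404 bases) had a median log2 change of -0.05. The ninth decile (69598 to 119053 bases) had a median of 0.45. In the shortest decile 12.9% of genes were higher and 14.1% lower, and in the longest 45.8% were higher and 1.085% lower. The same trend was seen after scaling, with medians of -0.35 in the shortest and 0.15 in the longest decile. Each library was also read against the gene means of the 6 libraries. The median of the longest minus that of the shortest decile was then 0.38, 0.04 and 0.25 in the TAC+PUE hearts and -0.25, -0.25 and -0.18 in the TAC hearts. All treated hearts were above all untreated ones, and TAC+PUE replicate 2 lay nearest to them.

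Genes whose promoter was poorest in G and C (29.0 to 49.3%) had a median change of 0.44, and the other deciles lay between 0.15 and 0.28. By expression, the medians were 0.32 in the lowest decile and 0.03 in the highest. RNA integrity values are not in the labels, and the part of RNA quality or of library preparation in the span pattern was not tested.

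**Figure D5:**
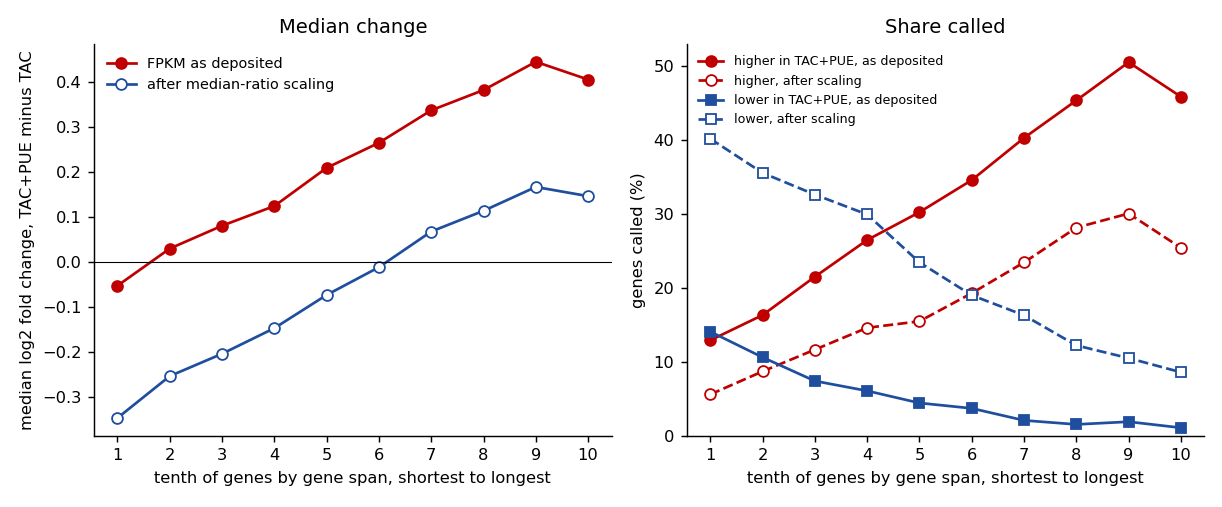
Median log2 fold change, TAC+PUE minus TAC (left), and share of genes called higher or lower in TAC+PUE hearts (right), by decile of gene span from shortest to longest, as deposited and after median-ratio scaling. The median is -0.05 in the shortest and 0.41 in the longest decile as deposited, and the share called higher is 12.9% in the shortest and 50.5% in the ninth.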

How the data were processed

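Alignment was done by the authors with Hisat2, assembly with StringTie and expression estimates with Ballgown. The submitters' processing notes name the build mm9. The deposited tables hold FPKM per gene, as their headers say, whereas the methods speak of TPM. Depth is not given and could not be recovered from the low values, so precision rests on the spread between the 3 mice of a group, each a separate library. The table leaves out genes below about 0.500 FPKM in both groups. Of its 14073 genes, 12597 matched RefSeq (GRCm38.p6) by symbol and 309 by an older symbol. Columns with the authors' own comparisons, where present, were not used.

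Genes that reached 1 FPKM in 3 or more libraries were tested with limma (version 3.58.1, R 4.3.3), eBayes with trend, on log2(FPKM + 1), two-sided, adjusted over all 11788 such genes. No set test was run, and lists are described by counts and medians beside those of all genes. Gene span was used because protein lengths were not analysed here. FPKM of overlapping genes and close paralogs are uncertain.

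Genes were named by rule: in each direction the 12 largest changes called in both scalings, with groups that do not overlap and a mean of at least 5 FPKM, predicted names aside; of each list up to 4 called members by size of change, else up to 2 by mean; Srf, Akt1, Igf2, Igfbp4, Igfbp6, Igf2r, Igf2bp2, Myh7 and Gapdh; and the 6 most abundant. Not all are printed. The members, lists and rule were chosen with earlier results of these data known. Alternatives were 3 other scalings, 2 pseudocounts, 2 filters, no trend, array weights, a joint fit with sham, a replicate block, each library left out, and 2 treatments of Myl7.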

Additional observations from a re-analysis of the deposited data

How the results depend on the processing

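As deposited 3592 genes were higher and 585 lower. Median-ratio scaling gave 2026 and 2523, removal of the ribosomal RNA-like transcripts with rescaling 2176 and 2099, and removal of these with the mitochondrial mRNAs 3702 and 977. Array weights gave 5492 and 2075, and the filter at 10 FPKM, which left 3377 genes tested, 782 and 291. Leaving out the 3 libraries of Myl7 at least 100 FPKM, which leaves TAC+PUE replicate 1 alone and assumes it varies like the others, gave 384 lower genes. Leaving out 1 library gave 2389 to 3982 higher and 234 to 775 lower genes. Pseudocounts, no filter, no trend, the joint fit and Myl7 as a covariate kept both counts within 1.5 times. A replicate block gave 3163 and 489 genes. The deviations of same-numbered hearts had correlations of -0.281, -0.112 and 0.195, against -0.193 to 0.274 for differently numbered ones. With 3 hearts a group, these values cannot settle whether the numbers pair the hearts.

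Reversals were in genes not called. Igf2 was 0.65 with array weights, and with 1 library left out it ranged over -0.48 to 0.12, positive without TAC+PUE replicate 1. Igf2r was -0.044 after median-ratio scaling and -0.0083 after removal of the ribosomal RNA-like transcripts. Myh7 was -0.27 and -0.23 under these and -0.037 without the 3 libraries. The cause was not tested. Of 136 named genes tested, 94 kept direction and side of the threshold under each of the 19 alternatives in which they were tested. Not every gene was tested in each. With the filter at 10 FPKM, 101 kept both, 2 became weaker and the others were left out. After median-ratio scaling the medians of 38 of 47 lists moved by more than their SD over the 3 TAC+PUE libraries. The spread of the TAC libraries did not enter this SD. The lung and airway list, counted in the 47, had no genes and so no median.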

Other observations

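Several of the largest increases outside the mitochondrial mRNAs belonged to no list of processes and fell outside the naming rule, so they are given here as values chosen after they were seen. Ogn and Aspn, small leucine-rich proteoglycans like Fmod and Lum, passed the test in both scalings. Ogn stood at 43.4, 25.2 and 35.4 FPKM in the TAC+PUE hearts, against 5.07, 8.35 and 12.01 FPKM in the TAC hearts. Aspn stood at 25.5, 13.1 and 14.5 FPKM in the TAC+PUE hearts, against 2.19, 4.68 and 3.93 FPKM in the TAC hearts. Ogn rose by 1.95 on the log2 scale (1.62 after scaling) and Aspn rose by 2.01 on the log2 scale (1.71 after scaling). Their sham means were 40.1 FPKM for Ogn and 16.8 FPKM for Aspn. Mgp, the matrix Gla protein that keeps tissue from calcifying, stood at 182, 234 and 218 FPKM in the TAC+PUE hearts, against 45.7, 69.2 and 90.03 FPKM in the TAC hearts. Mgp rose by 1.66 on the log2 scale (SE 0.23, and 1.31 after scaling), and its sham mean was 70.5 FPKM.

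Of heart muscle genes outside the lists, Nebl, which encodes nebulette of the Z-disc, stood at 29.1, 17.3 and 22.4 FPKM in the TAC+PUE hearts, against 4.43, 5.91 and 9.93 FPKM in the TAC hearts. Nebl rose by 1.66 on the log2 scale (1.34 after scaling), and its treated hearts were below the sham mean of 31.2 FPKM. Tecrl, a gene of the endoplasmic reticulum in which human mutations cause arrhythmia, stood at 21.8, 9.42 and 12.1 FPKM in the TAC+PUE hearts, against 1.94, 3.64 and 4.79 FPKM in the TAC hearts. Tecrl rose by 1.77 on the log2 scale (1.47 after scaling), with TAC+PUE replicate 1 the highest of the treated hearts and a sham mean of 22.1 FPKM. Both passed the test in both scalings.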
